A study of Larimichthys polyactis and Larimichthys crocea with 36 samples.

Results

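A small set of transcripts differed between large and small yellow croaker in the same direction in brain, liver and muscle. Members of the set were chosen by their FPKM values (sequenced fragments per unit of transcript length, relative to the library total) in the pure species alone. The conditions, applied in each tissue, were a higher species mean of at least 2 FPKM, species means at least 2-fold apart and no overlap between the 3 libraries of one species and the 3 of the other. The direction had to be the same in all 3 tissues, and only IDs carrying a chromosome number and read above 0.1 FPKM in at least 1 library of each species could enter. This gave 80 members of the 24212 IDs in the table, of which 23 were higher in large yellow croaker and 57 were higher in small yellow croaker.

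The libraries came from 4 kinds of fish: the reciprocal hybrids labelled LPC and LCP, large yellow croaker (Larimichthys crocea, LC) and small yellow croaker (Larimichthys polyactis, LP). Brain, liver and muscle of each were sequenced as polyadenylated RNA in 3 libraries, which makes 12 groups and 36 libraries. The series concerns hybrid vigour in growth. The labels give no age, sex, rearing condition or allele and do not state which species was the mother of either hybrid. Nothing in them ties replicate libraries to different fish. The p-values below therefore reflect only the spread between libraries, which may be technical.

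In a first-generation hybrid, each cell carries one genome from each species in a shared nucleus. A difference that lies in the regulatory sequence of the gene itself (in cis) then acts on its own copy only, whereas a difference in a factor that diffuses through the nucleus (in trans) reaches both copies. Total RNA levels do not separate the copies, so the position of a hybrid between its parents describes a level and not a mechanism. A difference between species found in several tissues is one that does not depend on the cell types of a single organ. The files do not pair the IDs with gene names, so no function is given for any member and no tissue could be checked against named marker genes.

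Every library had its best match, by rank correlation over all IDs, in a library of its own tissue (36 of 36), and in one of its own group in 28 of 36. Within groups the Spearman correlation over IDs was between 0.901 and 0.961. FPKM summed to between 492100 and 634400 per brain library, 858800 and 1029000 per liver library, and 704900 and 821000 per muscle library. These sums are not depth, which is unknown. In tissue samples of this kind, fewer cells of a type and less RNA per cell cannot be told apart.

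The LC and LP values below chose the members, so they are described and not tested. Of the 5850 eligible IDs with a higher species mean of at least 2 FPKM in all 3 tissues, 0.393% were members higher in LC and 0.974% were members higher in LP. In brain alone, the same conditions were passed by 3.1% of 14432 IDs with LC higher and by 4.77% with LP higher. In liver the shares of 9341 IDs were 8.86% and 7.87% with LC and LP higher. In muscle they were 1.99% with LC higher and 48.2% with LP higher, of 7277 IDs. The muscle libraries of LP thus stood above those of LC over most of the measured transcripts, and the median LC minus LP difference of all tested muscle IDs was -0.64 on log2(FPKM + 1).

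The balance of the members moved with the scaling of the libraries. When each library was divided by its median ratio to the other libraries of its tissue, the median muscle difference became -0.03 and the shares past the conditions in muscle became 10.8% with LC higher and 11.6% with LP higher. The shares after scaling were 4.64% and 3.71% with LC and LP higher in brain, and 8.79% and 7.94% in liver. The same rule then chose 84 IDs, 55 higher in LC and 29 higher in LP. Of the 80 members, 51 were chosen under both scalings, namely 22 of the 23 higher in LC and 29 of the 57 higher in LP. The predominance of members higher in LP therefore held for the values as deposited and turned to a predominance of LC after scaling, while 22 of the 23 members higher in LC were chosen either way. Scaling 1 tissue alone, a step chosen after seeing the data, gave 52 IDs higher in LC and 37 higher in LP when that tissue was muscle. It gave 24 and 48 when it was brain, and 22 and 54 when it was liver. At a limit of 4-fold in place of 2-fold, 8 members higher in LC and 6 higher in LP were left, and 7 and 5 of these were also chosen after scaling.

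**Figure D1:**
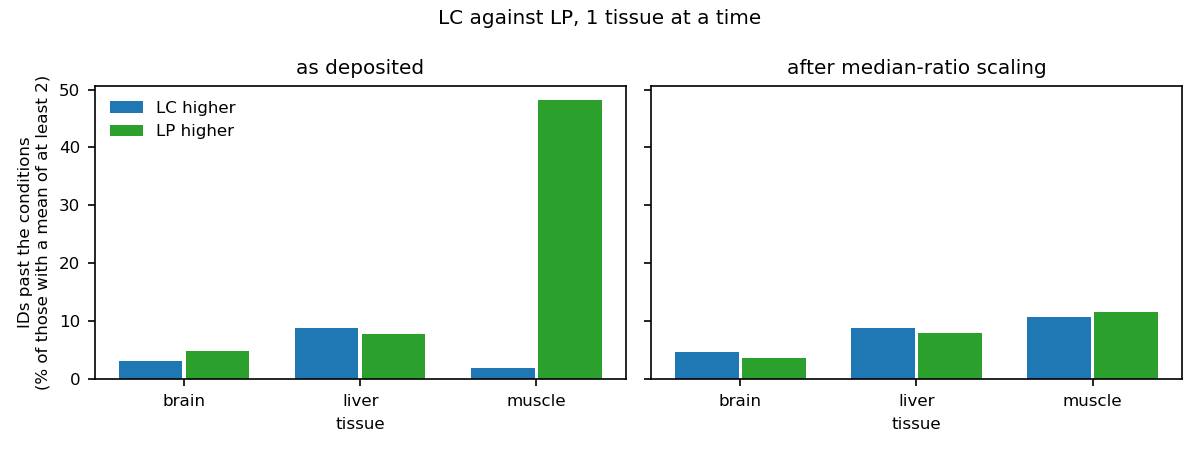
Share of IDs (% of those with a higher species mean of at least 2 FPKM) that passed the 2-fold and no-overlap conditions in each tissue, with bars for LC higher (blue) and LP higher (green), as deposited on the left and after median-ratio scaling on the right. The muscle bar for LP higher stands at 48.2% as deposited and 11.6% after scaling, while the brain and liver bars move by less than 2 percentage points.

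Across tissues, 4865 IDs passed the conditions in exactly 1 tissue, 603 in exactly 2 and 93 in all 3. In 13 of these 93 the direction was not the same in the 3 tissues, and they are not members. For 9 of the 13, LP was higher in brain and muscle and LC was higher in liver. Dropping the fold limit but keeping direction and separation of the libraries would have given 40 IDs higher in LC and 321 higher in LP, members included.

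The edge of the set was narrow. The member nearest to the limit among those higher in LC was evm.model.Chr5.653.1, with means of 14.95 FPKM in LC brain and 7.12 FPKM in LP brain (2.10-fold), and the nearest ID left out was evm.model.Chr16.983, with 23.3 FPKM in LC brain and 11.8 FPKM in LP brain (1.98-fold). Among IDs higher in LP, evm.model.Chr14.745 was a member with 6.58 FPKM in LC brain and 13.2 FPKM in LP brain, a ratio of 2.001. evm.model.Chr7.136 was left out with 4.84 FPKM in LC brain and 9.68 FPKM in LP brain, a ratio of 1.999.

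Members higher in LC were the more abundant ones in brain and had the longer tail of large differences. Their median level in LC was 51.6 FPKM in brain, 25.9 FPKM in liver and 7.03 FPKM in muscle. Members higher in LP had median levels in LP of 15.95 FPKM in brain, 8.60 FPKM in liver and 6.23 FPKM in muscle. The level was highest in brain for 16 of the 23 members higher in LC and for 34 of the 57 higher in LP. It was highest in liver for 6 and 15 of them and in muscle for 1 and 8.

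The median ratio of LC over LP for members higher in LC was 3.94 (brain), 6.22 (liver) and 5.11 (muscle), and the highest finite ratios were 1908, 182 and 314. The median ratio of LP over LC for members higher in LP was 2.72 (brain), 3.08 (liver) and 4.98 (muscle), with highest finite ratios of 8.87, 20.3 and 120.5. In each tissue except muscle for members higher in LP, 1 ratio has no finite value because all 3 libraries of the other species were listed at 0. On the log2(FPKM + 1) scale, the tissue with the largest difference was muscle for 36 of the 57 members higher in LP, but brain (12) or liver (10) for 22 of the 23 higher in LC. The muscle count for LP contains the offset of the muscle libraries given above.

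The members made up 0.67% to 0.778% of the FPKM sum in LC brain libraries and 0.309% to 0.332% in LP brain libraries. In liver they made up 0.101% to 0.224% in LC and 0.183% to 0.218% in LP. In muscle they made up 0.0633% to 0.0976% in LC and 0.0998% to 0.115% in LP. The most abundant member of the LC brain libraries was evm.model.Chr9.1128.

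**Figure D2:**
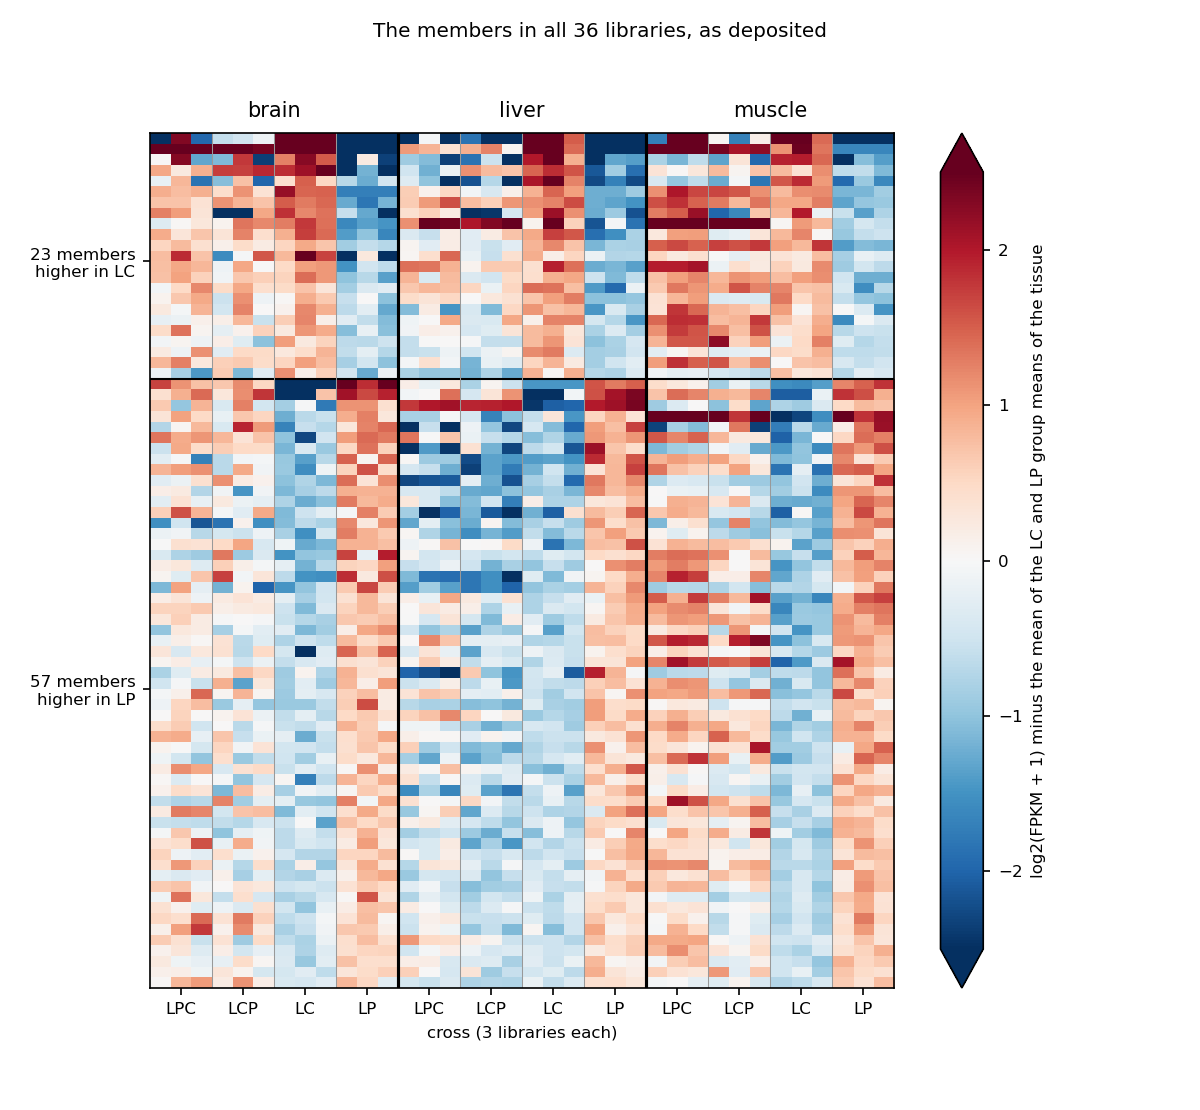
The 80 members (rows, 23 higher in LC above the black line and 57 higher in LP below it) in all 36 libraries (columns, by tissue and cross), coloured by log2(FPKM + 1) minus the mean of the LC and LP group means of the tissue, red above and blue below. LC and LP columns differ in colour because the rule required it, while the hybrid columns, which the rule did not use, are mostly pale in brain, shifted to blue in liver for members higher in LP and shifted to red in muscle.

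By mean FPKM over the 18 parental libraries, the 2 highest members higher in LC were evm.model.Chr9.1128 and evm.model.Chr15.765. evm.model.Chr9.1128 stood at 1076, 1924 and 1548 FPKM in the 3 LC brain libraries and at 219, 291 and 187 FPKM in the 3 LP brain libraries. In liver it read 102, 173 and 155 FPKM in LC, against 13.4, 17.5 and 29.8 FPKM in LP. In muscle it read 18.6, 25.1 and 10.4 FPKM in LC, against 4.79, 6.37 and 6.83 FPKM in LP. The means differed by ratios of 6.53 in brain, 7.09 in liver and 3.01 in muscle, although the level in LC differed widely between the tissues.

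evm.model.Chr15.765 had the largest difference of any member when each member is ranked by its smallest tissue difference. It stood at 713, 560.2 and 361 FPKM in LC brain, 149, 508 and 53.2 FPKM in LC liver, and 277, 339 and 43.2 FPKM in LC muscle. All 9 LP libraries read between 0.33 and 1.87 FPKM. The LC libraries of liver and muscle spread widely among themselves, but none came near the LP libraries.

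Second by that ranking was evm.model.Chr21.382. It read 79.6, 163 and 96.1 FPKM in LC brain, against 3.41, 38.3 and 5.65 FPKM in LP brain. In liver it read 175, 275 and 80.5 FPKM in LC, against 5.03, 16.8 and 16.0 FPKM in LP. In muscle it read 47.3, 48.9 and 33.6 FPKM in LC, against 0.75, 5.07 and 3.90 FPKM in LP. The means differed by ratios of 7.14 in brain, 14.0 in liver and 13.4 in muscle. Another member numbered close to it on the same chromosome, evm.model.Chr21.380, was higher in LC by ratios of 3.31, 25.8 and 12.7 in brain, liver and muscle. The ID numbered between them, evm.model.Chr21.381, is not a member. Its LC and LP means were 12.55 and 11.36 FPKM in brain, 4.78 and 4.32 FPKM in liver, and 4.45 and 6.38 FPKM in muscle.

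Among members higher in LP, the most abundant were evm.model.Chr17.776 and evm.model.Chr16.27. After scaling evm.model.Chr17.776 did not pass the conditions of the rule, and neither did evm.model.Chr7.398, evm.model.Chr2.1243 and evm.model.Chr2.1030, which are described further on. evm.model.Chr17.776 read 25.9, 34.4 and 36.1 FPKM in LC liver, against 572, 632 and 753 FPKM in LP liver, a ratio of 20.3 in favour of LP. In brain its means were 16.7 ± 10.1 FPKM in LC and 53.8 ± 14.2 FPKM in LP, and in muscle 10.6 ± 2.35 FPKM in LC and 28.1 ± 3.10 FPKM in LP (SD, n = 3 each). Its level in LP was thus highest in liver, where its ratio was also largest. evm.model.Chr16.27 averaged 12.3 ± 4.74 FPKM in LC brain and 51.5 ± 19.7 FPKM in LP brain, 50.7 ± 26.0 FPKM in LC liver and 246 ± 86.3 FPKM in LP liver, and 14.2 ± 5.61 FPKM in LC muscle and 90.3 ± 56.6 FPKM in LP muscle (SD, n = 3 each).

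By the smallest tissue difference, evm.model.Chr1.335 and evm.model.Chr9.1243 led the members higher in LP. evm.model.Chr1.335 was listed at 0 in all LC libraries of brain and liver and read 0.04, 0 and 0.15 FPKM in LC muscle. In LP it read 56.4, 22.1 and 53.0 FPKM in brain, 7.13, 5.77 and 6.78 FPKM in liver, and 6.02, 7.41 and 9.47 FPKM in muscle. evm.model.Chr9.1243 was not absent from LC as a species. LC libraries 1 and 2 were listed at 0 or, in liver library 1, at 0.24 FPKM, but LC library 3 read 14.0 FPKM in brain, 7.49 FPKM in liver and 2.72 FPKM in muscle. LP read 38.3, 27.8 and 33.8 FPKM in brain, 25.6, 36.6 and 44.5 FPKM in liver, and 13.8, 11.9 and 6.74 FPKM in muscle.

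Near absence from one species in all 3 tissues, taken as a mean under 0.1 FPKM, was found for 3 members. A value above 0.1 FPKM in some library of each species was a condition of entry, so stricter absence could not occur among the members. They were evm.model.Chr23.828 and evm.model.Chr23.822, found in LC, and evm.model.Chr1.335, found in LP. evm.model.Chr23.822 was named after its values were seen. The highest mean of the lower species was 0.06 FPKM for evm.model.Chr23.828, 0.0867 FPKM for evm.model.Chr23.822 and 0.0633 FPKM for evm.model.Chr1.335.

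Members were spread over the chromosome numbers in the IDs. They fell on 22 of 24 chromosomes, with none among the 778 IDs of chromosome 18 and the 786 IDs of chromosome 20, against 0.416% of IDs overall and at most 0.743% on 1 chromosome. In 6 pairs, the members' ID numbers on a chromosome lay within 12 of each other. In 5 of the 6 pairs both members were higher in the same species. These include evm.model.Chr21.380 with evm.model.Chr21.382 and evm.model.Chr23.822 with evm.model.Chr23.828. Most members were higher in LP, so members may share a direction without being close in number. Neither the count of pairs nor the count with a shared direction was compared with members placed at random. Clustering was therefore not tested. Whether paired IDs share reads was not tested, since no sequence was used here.

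The hybrids supply the values that the rule did not use. On a scale of FPKM where 0 is the LP mean and 1 the LC mean, each hybrid library was given the median position of its members. In brain the 4 mean positions were between 0.499 and 0.631. Members higher in LC had positions of 0.499 ± 0.0598 in LPC and 0.503 ± 0.219 in LCP, and members higher in LP had positions of 0.534 ± 0.124 in LPC and 0.631 ± 0.0364 in LCP (SD over 3 libraries each). The mean of the 6 hybrid libraries lay between the parental means for 70 of the 80 members. Among IDs that passed the conditions in brain and are not members, it did so for 370 of 425 with LC higher and 575 of 632 with LP higher. The members were thus not particular in this. On log2(FPKM + 1) in place of FPKM, the brain positions were 0.755 in LPC and 0.689 in LCP for members higher in LC, and 0.392 in LPC and 0.467 in LCP for members higher in LP.

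In liver the hybrids lay towards the parent with the lower level, on either side. Members higher in LC had positions of 0.338 ± 0.026 in LPC and 0.273 ± 0.167 in LCP, which is nearer to LP. Members higher in LP had positions of 0.837 ± 0.0154 in LPC and 1.05 ± 0.0507 in LCP, which is at or near LC. The hybrid mean was between the parental means for 56 members and below both for 23. Among IDs that passed in liver and are not members, it was between for 556 of 805 with LC higher and 461 of 678 with LP higher. It was below both for 218 and 171 of these. By direction, it was between for 21 of the 23 members higher in LC and for 35 of the 57 higher in LP. It was below both for 1 and 22 of them. Members higher in LC were thus below both less often than other IDs with LC higher. Members higher in LP were below both more often than other IDs with LP higher. These differences are those of the values as deposited and were not tested. After median-ratio scaling the hybrid mean was below both for 1 of the 23 members higher in LC and 7 of the 57 higher in LP. As a median over members, the hybrid mean was 0.721 of the parents' FPKM average for members higher in LC and 0.567 for members higher in LP. IDs that passed the conditions in liver but not in all 3 tissues had medians of 0.622 and 0.631.

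In muscle LPC lay towards or beyond the parent with the higher level on either side, and LCP did so for members higher in LC. For members higher in LP, LCP lay near the middle. Members higher in LC had positions of 1.29 ± 0.207 in LPC and 0.885 ± 0.101 in LCP, and members higher in LP had positions of 0.265 ± 0.0585 in LPC and 0.539 ± 0.0649 in LCP. The hybrid mean was between the parental means for 51 members, above both for 28 and below both for 1. Among IDs that passed in muscle and are not members, it was between for 63 of 122 with LC higher and 1518 of 3448 with LP higher. It was above both for 24 and 1889 of these, and below both for 35 and 41. The median ratio of the hybrid mean to the parents' FPKM average was 1.92 for members higher in LC and 1.23 for members higher in LP. It was 0.854 and 1.60 for IDs that passed in muscle but not in all 3 tissues.

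Most of these displacements in liver and muscle were smaller when the libraries were put on one scale. After median-ratio scaling, members higher in LC had liver positions of 0.448 ± 0.0508 in LPC and 0.570 ± 0.175 in LCP, and muscle positions of 0.466 ± 0.08 in LPC and 0.529 ± 0.113 in LCP. Members higher in LP had muscle positions of 0.529 ± 0.0266 in LPC and 0.519 ± 0.112 in LCP. What was left was a liver position of 0.725 ± 0.0696 in LPC and 0.759 ± 0.101 in LCP for members higher in LP, nearer to LC. The hybrid mean then lay between the parental means for 69 members in brain, 65 in liver and 53 in muscle. Other IDs were not counted after scaling.

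**Figure D3:**
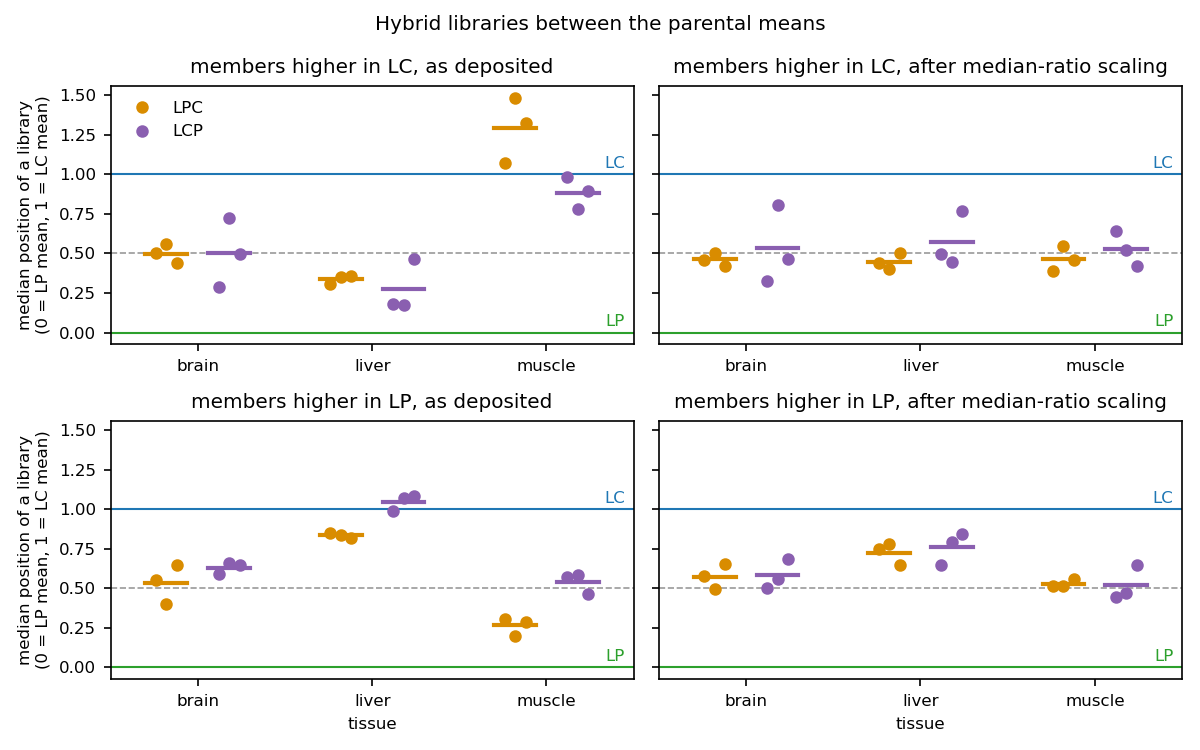
Median position of the members in each hybrid library (points; bars are means of 3 libraries) on a linear FPKM scale where 0 is the LP mean and 1 the LC mean, for members higher in LC (top) and in LP (bottom), as deposited (left) and after median-ratio scaling (right). As deposited, the brain means lie between 0.499 and 0.631, with LCP libraries spread widely for members higher in LC, and the liver and muscle means depart further from 0.5 except for LCP in muscle at 0.539 for members higher in LP, whereas after scaling the departure is clearest for members higher in LP in liver, at means of 0.725 in LPC and 0.759 in LCP.

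Hybrid levels were tested against the parents' average with limma on log2(FPKM + 1), fitted per tissue on all IDs with at least 1 FPKM in at least 3 of 12 libraries. All 80 members passed that filter in each tissue. Some did so only with the libraries that chose them counted in, such as evm.model.Chr2.1030 and evm.model.Chr2.975 in muscle and evm.model.Chr22.21 and evm.model.Chr4.396 in liver. The counts of calls below include such members, but nothing is read from their calls. The parental side of this comparison consists of the libraries that chose the members. The rule required species means far apart and libraries without overlap, so it bears on the mid-parent and on the spread used here. Calls and p-values of members against a mid-parent are therefore not independent of the choice and serve as description. For the linear mid-parent, each species mean of log2(FPKM + 1) was taken back to the linear scale. The log2 of the average of both species was then used. Against it, no member was called in brain at a limma adjusted p under 0.05, with 7 at an unadjusted p under 0.05. Shares of all tested IDs are given at the adjusted p only. Nothing is therefore read from member counts at an unadjusted p, here or further on. In brain, 0.00558% of all tested IDs were called higher and 0.0502% lower. Without LPC library 2, 1 member was called.

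In liver, 1 member rose above the linear mid-parent and 36 fell below it, against 2.11% higher and 33.8% lower of all tested IDs. The members' median change was -0.60 and that of all tested IDs -0.38. After median-ratio scaling 3 members were higher and 11 lower, against 3.75% and 3.59% of all tested IDs, the medians were -0.21 for the members and -0.04 for all IDs, and 1 higher and 11 lower members were called under both scalings. Of the 11 members called lower under both, 8 were members higher in LP, a share similar to that among all members (57 of 80). The 8 include evm.model.Chr22.21 and evm.model.Chr4.396, which passed the filter only with LP libraries counted in.

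In muscle, 26 members rose and 11 fell, against 35.9% higher and 5.31% lower of all tested IDs, and the medians were 0.25 for the members and 0.32 for all IDs. After scaling there were 11 higher and 14 lower calls among the members, against 21.9% and 14.9% of all tested IDs. Under both scalings, 11 members were called higher and 11 lower. The lower calls include evm.model.Chr2.1030 and evm.model.Chr2.975, which passed the filter in muscle only through the LP libraries. The higher calls in muscle were thus no more frequent among members than among all tested IDs.

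Named by the size of their change, evm.model.Chr17.776 and evm.model.Chr15.765 departed in opposite ways in liver, each towards LP. evm.model.Chr17.776 read 499, 584 and 628 FPKM in LPC liver and 544, 556 and 582 FPKM in LCP liver, all within or just below the LP libraries and far above the LC ones given above. Its hybrid mean was above the linear mid-parent by 0.73 on the log2 scale (SE 0.174, limma adjusted p = 0.011), and by 1.21 after scaling (limma adjusted p = 0.00604). In brain and muscle it had no such level, with LPC and LCP means of 36.6 and 36.7 FPKM in brain and 13.2 and 12.8 FPKM in muscle. evm.model.Chr15.765 read 2.03, 17.3 and 1.47 FPKM in LPC liver and 4.27, 0.96 and 2.38 FPKM in LCP liver, against 53.2 to 508 FPKM in LC and 0.78 to 1.87 FPKM in LP. It fell below the linear mid-parent by 4.31 (SE 0.723, limma adjusted p = 0.00303), and its position was 0.02 in LPC and 0.01 in LCP.

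The pair evm.model.Chr21.380 and evm.model.Chr21.382, close in ID number but not adjacent, lay near LP in liver and muscle of both hybrids. evm.model.Chr21.380 read 11.3, 6.67 and 1.41 FPKM in LPC liver and 2.40, 8.32 and 1.57 FPKM in LCP liver, against 62.2, 114 and 35.5 FPKM in LC and 2.20, 3.79 and 2.22 FPKM in LP. Its change against the linear mid-parent was -2.73 in liver (limma adjusted p = 0.00518) and -1.51 in muscle (limma adjusted p = 0.00418). evm.model.Chr21.382 read 6.43, 4.75 and 7.23 FPKM in LPC muscle and 4.14, 14.9 and 2.29 FPKM in LCP muscle, against 33.6 to 48.9 FPKM in LC and 0.75 to 5.07 FPKM in LP. Its change in muscle was -1.81 (SE 0.449, limma adjusted p = 0.00773). All 6 hybrid libraries of muscle were below all LC libraries for both IDs, and these calls were also made after scaling.

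The members with the highest change in muscle were evm.model.Chr7.398 and evm.model.Chr23.828, both higher in LC. evm.model.Chr7.398 read 13.6, 13.8 and 14.9 FPKM in LPC muscle and 16.5, 13.5 and 26.4 FPKM in LCP muscle. The LC libraries read 1.14, 3.33 and 2.67 FPKM and the LP libraries 0.14, 0.53 and 0.37 FPKM, so all 6 hybrid libraries were above every parental library. The change against the linear mid-parent was 2.89 (SE 0.217, limma adjusted p = 4.19e-05) and 2.33 after scaling. In brain evm.model.Chr7.398 was not above both parents, with means of 2.09 FPKM in LPC, 4.99 FPKM in LCP, 7.61 FPKM in LC and 0.10 FPKM in LP.

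evm.model.Chr23.828, nearly absent from LP, read 25.3, 27.3 and 26.8 FPKM in LPC muscle and 15.4, 11.96 and 13.6 FPKM in LCP muscle, against 5.82, 16.0 and 6.81 FPKM in LC and 0 in all LP libraries. Its change against the linear mid-parent was 1.91 (SE 0.241, limma adjusted p = 0.000406) and 1.12 after scaling. As deposited, all 3 LPC libraries were above every LC library, and the LCP libraries overlapped the LC ones. Median-ratio scaling divided the LPC muscle libraries by 1.27, 1.499 and 1.447, but LC muscle library 2 by 0.7241. After it, LC library 2 was above all LPC libraries, so LPC was above LC only in the values as deposited. In brain it read 61.0, 63.8 and 69.8 FPKM in LPC and 84.1, 63.5 and 56.9 FPKM in LCP, against 109, 123 and 111 FPKM in LC and 0, 0 and 0.18 FPKM in LP. That level was close to the parents' average, with a change of 0.20 against the linear mid-parent (SE 0.152, limma adjusted p = 0.777).

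The choice of mid-parent decides the call for such a transcript. Against the mean of the parents' log2 values, evm.model.Chr23.828 was 2.60 higher in brain (SE 0.125, limma adjusted p = 9.71e-06), because a mean of logarithms lies below the logarithm of the mean when the parents differ. It was the 1 member called against the log2 mid-parent in brain, where 0.039% of all tested IDs were called higher and 0.0112% lower. In liver 5 members were higher and 28 lower against the log2 mid-parent (2.64% and 29.9% of all tested IDs), and 8 higher and 6 lower after scaling (4.79% and 2.82%). In muscle 38 were higher and 7 lower (42.8% and 4.42%), and 24 higher and 11 lower after scaling (24.9% and 13.3%).

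By the log2 mid-parent, the highest changes in liver were those of evm.model.Chr7.398 at 2.29 (SE 0.585, limma adjusted p = 0.0154) and evm.model.Chr17.776 at 1.95 (SE 0.147, limma adjusted p = 8.46e-05), and both were called after scaling too. evm.model.Chr7.398 read 97.1, 259 and 235 FPKM in LPC liver and 179, 219 and 427 FPKM in LCP liver, against 46.0, 461 and 64.8 FPKM in LC and 8.88, 41.9 and 11.3 FPKM in LP, so the hybrids overlapped LC only. The lowest were evm.model.Chr15.765 at -2.21 (limma adjusted p = 0.0186) and evm.model.Chr11.776.1 at -2.03 (limma adjusted p = 0.0123). Neither of these 2 low calls was made after scaling, where the changes were -1.86 for evm.model.Chr15.765 (limma adjusted p = 0.0782) and -1.64 for evm.model.Chr11.776.1 (limma adjusted p = 0.0758).

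evm.model.Chr11.776.1, a member higher in LP, read 7.21, 0.91 and 2.68 FPKM in LPC liver and 5.69, 2.43 and 0.72 FPKM in LCP liver, against 5.40, 2.57 and 18.5 FPKM in LC and 24.6, 21.8 and 39.3 FPKM in LP. The hybrids overlapped LC and lay below all LP libraries.

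In muscle the highest changes by the log2 mid-parent were those of evm.model.Chr7.398 at 3.03 (SE 0.208, limma adjusted p = 1.01e-05) and evm.model.Chr2.1243 at 2.75 (SE 0.321, limma adjusted p = 0.000151). evm.model.Chr2.1243, higher in LP, read 91.7, 158 and 143 FPKM in LPC muscle and 96.6, 55.2 and 146 FPKM in LCP muscle, against 0.96, 2.34 and 4.57 FPKM in LC and 121, 56.3 and 72.3 FPKM in LP. The hybrid libraries overlapped those of LP and lay above all of LC. The lowest changes were those of evm.model.Chr21.380 at -0.85 (SE 0.291, limma adjusted p = 0.03) and evm.model.Chr2.1030 at -0.77. evm.model.Chr2.1030 entered the muscle fit only through the LP libraries, which also chose it, so nothing is read from its call. With any 1 LP library left out it did not enter the fit. The call of evm.model.Chr21.380 against the log2 mid-parent was lost when any 1 of 7 libraries was left out (LPC 2 and 3, LCP 1 and 3, LC 1 and 2, LP 2), with changes between -1.10 and -0.66 over all 12 omissions.

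evm.model.Chr2.1030, higher in LP, read 0.26, 0.44 and 0.42 FPKM in LPC muscle and 0.36, 0.70 and 0.12 FPKM in LCP muscle, against 0.47, 0.41 and 0.73 FPKM in LC and 1.23, 2.46 and 4.81 FPKM in LP. At such levels a change on log2(FPKM + 1) understates the ratio.

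In 1 tissue at a time, all 6 hybrid libraries lay between and clear of both parents for 7 of the 80 members in brain, 7 in liver and 5 in muscle. Among other IDs that passed in the tissue, this held in brain for 30 of 425 with LC higher and 26 of 632 with LP higher. It held for 32 of 805 and 13 of 678 in liver, and for 1 of 122 and 67 of 3448 in muscle. Only evm.model.Chr1.335 had all 6 hybrid libraries between and clear of both parents in brain, liver and muscle. It read 19.7, 13.0 and 9.78 FPKM in LPC brain and 9.22, 13.6 and 8.27 FPKM in LCP brain. In liver it read 2.06, 1.43 and 2.31 FPKM in LPC and 0.58, 1.88 and 0.88 FPKM in LCP, and in muscle 3.10, 2.60 and 2.22 FPKM in LPC and 0.64, 1.69 and 0.87 FPKM in LCP. Its position was between 0.66 and 0.87 in each hybrid and tissue, nearer to LC, where the transcript was listed at or close to 0. The hybrid mean lay between the parental means in all 3 tissues for 9 of the 23 members higher in LC and 20 of the 57 higher in LP. Neither count over all 3 tissues was made for other IDs.

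**Figure D4:**
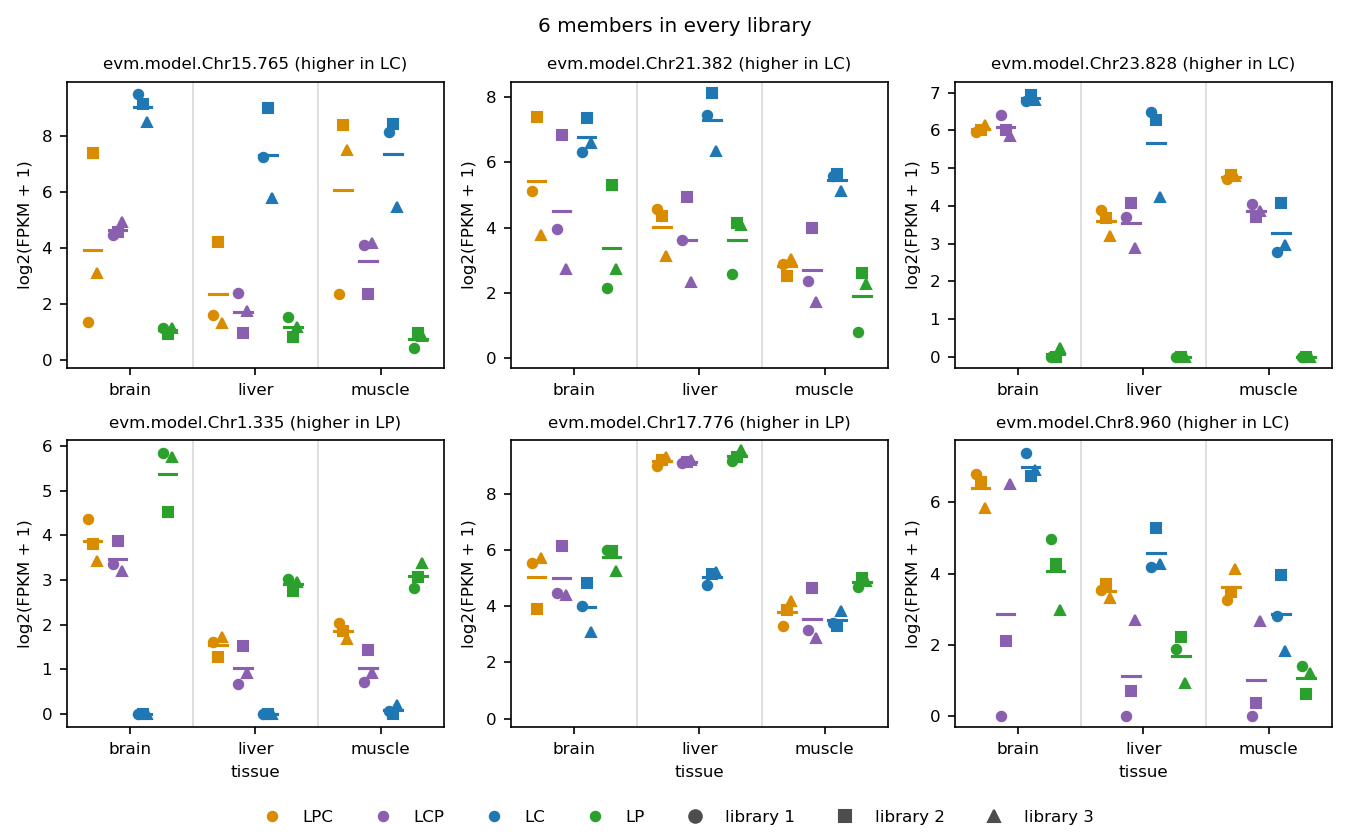
log2(FPKM + 1) of 6 members in every library of brain, liver and muscle, with LPC, LCP, LC and LP from left to right in each tissue, marker shapes for library numbers 1, 2 and 3, and bars for the means of 3 libraries. evm.model.Chr1.335 shows both hybrids between the parents in every tissue, evm.model.Chr17.776 shows both hybrids at the LP level in liver alone, and evm.model.Chr8.960 shows LCP library 3 far above LCP libraries 1 and 2.

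The 2 hybrids were then compared with each other, a comparison in which none of the libraries that chose the members takes part, apart from the shared estimate of the spread. In brain no member was called between LPC and LCP (5 at an unadjusted p under 0.05), nor was any of the 17931 tested IDs (0% in either direction). In liver no member was called, against 0.191% of all tested IDs higher and 0.0478% lower in LPC. At an unadjusted p under 0.05 there were 25 members, but the share of all tested IDs at that limit was not counted. Of the members, 69 of 80 were higher in LPC liver by their mean change, with a median of 0.42 against 0.33 for all tested IDs, and after scaling 45 of 80 with a median of 0.04. After scaling no member was called in liver either (8 at an unadjusted p under 0.05), against 0.121% higher and 0.178% lower of all tested IDs. Without LCP library 3, 1 member was called in liver.

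In muscle 6 members were higher in LPC and none was lower, against 4.36% higher and 0.415% lower of all tested IDs. The median difference was 0.32 among the members and 0.33 among all tested IDs. After scaling, 2 of the 6 were called and no other, against 0.55% higher and 0.862% lower of all tested IDs. The count was 2 without LPC library 2, 1 without LPC library 3, 2 without LCP library 1 and 3 without LCP library 2. Between tissues, the LPC minus LCP difference of no member differed by limma: muscle against liver (8 at an unadjusted p under 0.05), muscle against brain (8) and liver against brain (2). All tested IDs were called at 0.0984% and 0.153% (higher and lower) in the first of these comparisons, 0.276% and 0.0394% in the second, and 0.00877% and 0% in the last. Without library 2 of LCP in all 3 tissues at once, 1 member was called for muscle against brain.

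The 2 members named in muscle were evm.model.Chr8.960 and evm.model.Chr14.490, both higher in LC. evm.model.Chr14.490 read 6.55, 6.55 and 7.23 FPKM in LPC muscle and 0.75, 1.60 and 1.28 FPKM in LCP muscle, against 1.90, 1.30 and 3.39 FPKM in LC and 0.05, 0.41 and 0.23 FPKM in LP. As deposited, the LPC libraries were above all other muscle libraries. Median-ratio scaling divided LC muscle library 3 by 0.5915, but the LPC muscle libraries by 1.27, 1.499 and 1.447. After it, LC library 3 was above all LPC libraries. LPC exceeded LCP by 1.83 on the log2 scale (SE 0.243, limma adjusted p = 0.00315) and by 1.42 after scaling (limma adjusted p = 0.0321). The call was kept in all 12 fits that left out 1 library, with changes between 1.67 and 1.96. It was lost under quantile normalization, at 1.29 (limma adjusted p = 0.0641). In brain evm.model.Chr14.490 averaged 15.7 ± 1.26 FPKM in LPC and 10.9 ± 5.34 FPKM in LCP, and in liver 30.3 ± 5.73 FPKM in LPC and 17.9 ± 3.95 FPKM in LCP (SD, n = 3 each).

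evm.model.Chr8.960 read 8.58, 10.3 and 16.6 FPKM in LPC muscle and 0, 0.30 and 5.36 FPKM in LCP muscle, against 6.07, 14.7 and 2.58 FPKM in LC and 1.68, 0.54 and 1.33 FPKM in LP. The difference of 2.62 (SE 0.645, limma adjusted p = 0.0425) did not pass after scaling (2.24, limma adjusted p = 0.0924). It was also lost when any 1 of 8 of the 12 libraries was left out: LPC 1, 2 and 3, LCP 1 and 2, LC 1, and LP 1 and 3. The wide spread among the LCP libraries recurred in the other tissues. LCP libraries 1, 2 and 3 read 0, 3.29 and 90.0 FPKM in brain and 0, 0.63 and 5.53 FPKM in liver, so library 1 was listed at 0 and library 3 was highest in each tissue.

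Such agreement by library number was counted over all members. The labels do not say that libraries with the same number came from the same fish. Over 159 combinations of a member and a hybrid with an unambiguous highest library in each tissue, the same number was highest in all 3 tissues in 43 (27%). For the other IDs with a higher species mean of at least 2 FPKM in all 3 tissues it was 1789 of 11434 (15.6%). Where the highest library was at least 2-fold above the lowest in every tissue, it was 8 of 16 (50%) for members and 63 of 328 (19.2%) for other IDs. After scaling these were 9 of 14 (64.3%) and 61 of 300 (20.3%). The counts are descriptive, since members are not independent of one another and no test was made.

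Combinations shown next were picked because the same number was highest in all 3 tissues. evm.model.Chr15.765 varied by number in LPC. Libraries 1, 2 and 3 read 1.52, 164 and 7.50 FPKM in brain, 2.03, 17.3 and 1.47 FPKM in liver, and 4.06, 332 and 178 FPKM in muscle, with library 2 highest each time. In LCP, library 2 was highest for both evm.model.Chr21.382 and evm.model.Chr21.380. evm.model.Chr21.382 read 14.7, 114 and 5.63 FPKM in LCP brain, 11.3, 29.4 and 4.09 FPKM in LCP liver, and 4.14, 14.9 and 2.29 FPKM in LCP muscle. evm.model.Chr21.380 read 12.5, 46.0 and 6.18 FPKM in LCP brain, 2.40, 8.32 and 1.57 FPKM in LCP liver, and 1.68, 5.18 and 0.81 FPKM in LCP muscle. For both, the order of the libraries was 2, 1 and 3 in every tissue.

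**Figure D5:**
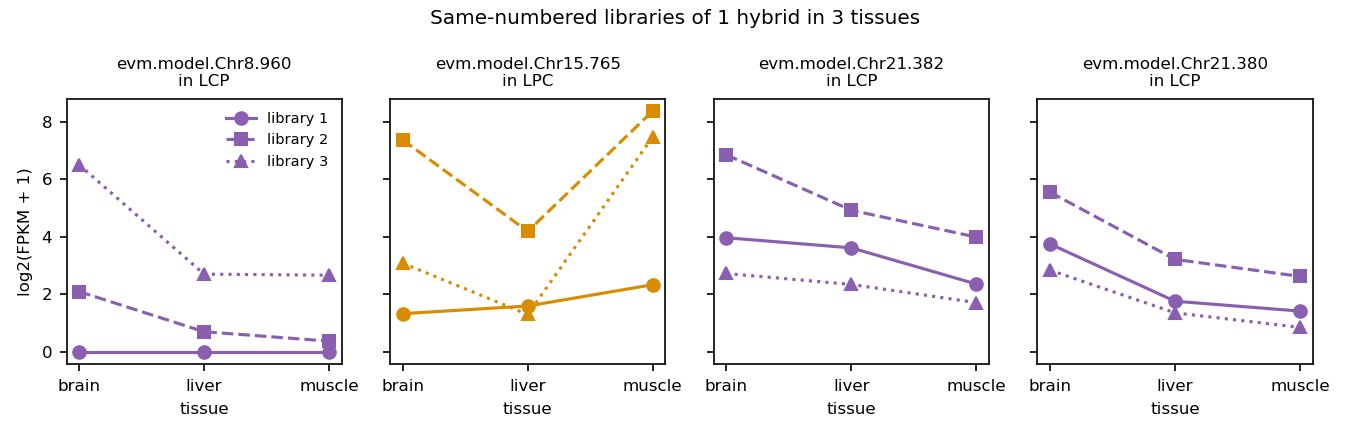
log2(FPKM + 1) of 4 member and hybrid combinations, with lines joining libraries of the same number across brain, liver and muscle. They have the widest spread among combinations picked because the same number was highest, at least 2-fold above the lowest, in all 3 tissues. The agreement on the highest library therefore follows from the choice. Library 3 is highest in each tissue for evm.model.Chr8.960 in LCP, and library 2 is highest in each tissue for evm.model.Chr15.765 in LPC and for evm.model.Chr21.382 and evm.model.Chr21.380 in LCP.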

How the data were processed

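The authors deposited FPKM per ID and library, rounded to 2 decimals. fastp, a read trimmer, is named in the submitters' processing notes. Aligner, quantifier, genome build and annotation were not given in the sources used here, so it is not known whether both species were read against the genome of 1 of them. FPKM hides depth, which limits low values most.

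The members and lists were chosen with earlier results of these data known. IDs starting with evm.model.Chr that exceeded 0.1 FPKM in a library of each species were taken. Samples were grouped by their titles. No value column was left unmapped. limma 3.58.1 in R 4.3.3 was fitted per tissue on log2(FPKM + 1). Its groups were the 4 crosses and its prior variance followed a trend with the mean. Tests were 2-sided, with Benjamini-Hochberg adjustment over all tested IDs. An ID needed at least 1 FPKM in 3 libraries. For the linear mid-parent, the parental group means of log2(FPKM + 1) are raised back as powers of 2. Their average is put on log2, with an error from the delta method. Each parental term is thus a geometric mean of FPKM + 1 over its libraries. Differences between tissues were fitted over all 36 libraries. The pseudocount of 1 understates changes of low values. Median-ratio scaling divided each library by its median ratio to the geometric mean, over IDs above 0 in all 12 libraries of the tissue. Scripts were tested on simulated data.

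Alternatives were a pseudocount of 0.1, no filter, scaling, quantile normalization, a replicate block, other limits of the rule and omission of each library. For the rule and the differences between tissues, a library number was omitted in all 3 tissues at once. Named IDs are at most 2 per direction and comparison: the smallest tissue difference and the mean FPKM for LC against LP, and the most extreme called changes elsewhere. Python 3.11.15 with pandas 2.3.3 and matplotlib 3.10.9 was used for the rest.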

Additional observations from a re-analysis of the deposited data

Results flagged for a closer look

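evm.model.Chr23.828, a member nearly absent from LP, lay on opposite sides of the parents' FPKM average in 2 tissues. The mean of the 6 hybrid libraries was 4.21 times the average of the LC and LP means in muscle and 0.374 times that average in liver, and all 6 hybrid libraries were above it in muscle and below it in liver. After median-ratio scaling the ratios were 2.25 in muscle and 0.552 in liver, again with all 6 libraries on each side. The difference between the tissues was not tested. As deposited, 6 members had all 6 hybrid libraries above the average in 1 tissue and below it in another, and 1 did so after scaling. This was not counted over all IDs. As deposited, the median change of all tested IDs against the linear mid-parent was -0.38 in liver and 0.32 in muscle. The count is therefore not a result about the members.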

How the results depend on the processing

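No single named change turned its sign under the alternatives run, but several balances did: members higher in LC and LP were 23 and 57 as deposited and 55 and 29 after median-ratio scaling, and linear mid-parent calls in muscle were 26 higher and 11 lower as deposited, 11 and 14 after scaling, and 6 and 18 after quantile normalization. The number of members (80) was 225 at a 1.5-fold limit, 14 at 4-fold, 42 at a minimum of 5 FPKM and 132 without the no-overlap condition. Members higher in LP were 191, 6, 29 and 98 under these and 88 at a minimum of 1 FPKM. Members higher in LC were 8 at 4-fold and 13 at a minimum of 5 FPKM. Scaling muscle alone gave 52 and 37. With 1 library omitted, the counts were 92 to 111 in all, 22 to 30 higher in LC and 69 to 84 higher in LP, of which 64 to 72 were among the 80 (44 to 50 of the 57 higher in LP).

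After scaling, positions were 0.581 (LCP, brain, higher in LP), 0.448 and 0.57 (LPC and LCP, liver, higher in LC), 0.725 and 0.759 (liver, higher in LP), 0.466 and 0.529 (muscle, higher in LC) and 0.529 (LPC, muscle, higher in LP). On a log2 scale they were 0.755 (LPC, brain, higher in LC), 0.392 and 0.467 (LPC and LCP, brain, higher in LP), 0.522 and 0.449 (liver, higher in LC), 0.723 (LPC, liver, higher in LP) and 0.157 and 0.39 (muscle, higher in LP). With 1 library omitted, members higher in LC lay at 0.391 to 0.611 for LCP in brain and 0.176 to 0.323 in liver.

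Members called between LPC and LCP in muscle (6) were 3 at a pseudocount of 0.1, 3 without a filter, 2 after scaling, 1 after quantile normalization, 3 with a replicate block and 1 to 7 with 1 library omitted; in liver 0 to 1. Against the log2 mid-parent they were 3 in brain at a pseudocount of 0.1, and 14 after scaling or 12 after quantile normalization in liver. Against the linear mid-parent they were 14 and 15 in liver and 24 in muscle after quantile normalization, and 0 to 1 in brain with 1 library omitted. The tissue difference of muscle against brain gave 0 to 1 with 1 library number of a hybrid omitted in all 3 tissues at once.

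Same-numbered libraries deviated together in 15 of 54 pairs between crosses (correlation over 0.1; -0.37 to 0.67), and in 22 of 36 pairs between tissues of a cross (0.0205 to 0.236). The median was 0.0189 between crosses and 0.127 between tissues of a cross, where all 36 correlations were positive. Not every pair was over 0.1 in either case, so the numbers were not taken as pairs. That limit does not exclude that same-numbered libraries of a cross came from the same fish. If they did, the 3 tissues are not independent observations of a species difference. The tissue differences between LPC and LCP gave 0 calls with the block as without it. The replicate block ended the call of evm.model.Chr8.960 (2.62, limma adjusted p = 0.0598) and of no other named result. Depth is unknown, so low values have no stated counting error.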
